A study of Mus musculus with 5 samples.

Results

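WT1 peaks crowd together in 3 segments of mouse chromosomes 15 and 19, which are described here: chromosome 15 from 76000001 to 80000000, chromosome 19 from 3000001 to 8000000 and chromosome 19 from 42000001 to 48000000 (mm9). They are called the chromosome 15 block, the proximal chromosome 19 block and the distal chromosome 19 block. They span 15 Mb in all. A peak belonged to a block when its midpoint lay inside it. The blocks held 9432 of the 622792 peaks in 4 lists. By library, 242 of 6440 peaks lay there in M15 replicate 1, 1722 of 60925 in M15 replicate 2, 3968 of 310999 in KTS-minus replicate 1 and 3500 of 244428 in KTS-minus replicate 2. M15 replicate 1 was by far the shortest list. The blocks had been picked as runs of 1 Mb bins whose summed peak signal was at least 4 times the median bin of a library in at least 3 libraries. Peak number, covered length, width and coverage in the blocks are therefore given as a description, with no test against the rest.

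WT1 is a zinc-finger transcription factor needed for the formation of kidney and gonad. Its splice forms with and without the amino acids KTS (lysine, threonine, serine) differ in the linker before the last zinc finger, and the form without KTS binds DNA in a sequence-specific way more readily than the form with KTS. In CUT&RUN an antibody tethers a nuclease to chromatin, the nuclease releases the DNA around the bound protein, and stretches where released fragments pile up are called as peaks.

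The libraries were made with a WT1 antibody from M15 cells, a line of mouse mesonephric epithelium transformed by polyoma virus large T (2 libraries), and from an M15 line named KTS-minus (2 libraries). By the title of the series, the line was edited in its genome for the KTS isoforms. The labels say neither which isoform its cells still make nor whether it is 1 clone, and give no separate cultures for replicates. The spread between replicates may therefore be technical. The IgG library of the series was not analysed here, so no background level from a control antibody stands beside the values.

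As general background, the chromosome 15 block carries Myh9 (a non-muscle myosin heavy chain) and Sox10 (a neural crest transcription factor). The proximal chromosome 19 block carries the tumour suppressor gene Men1, the NF-kappaB subunit gene Rela and the long noncoding RNA genes Malat1 and Neat1. The distal block carries Fgf8, a signalling ligand gene, and Pax2, a transcription factor gene of the nephric duct and mesonephros that is known as a WT1 target. No peak was assigned to any gene, and gene density was not tested.

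In every list, peaks were closer together in the blocks than on the rest of chromosomes 15 and 19. In whole lists, which differ greatly in length, the step was far steeper in M15. M15 replicate 1 listed 16.1 peaks per Mb in the blocks and 3.66 on the rest, a ratio of 4.41. M15 replicate 2 listed 114.8 and 41.8, a ratio of 2.75. KTS-minus replicate 1 listed 264.5 and 227.7, a ratio of 1.16, and KTS-minus replicate 2 listed 233.3 and 176.6, a ratio of 1.32. The mean ratio was 3.58 ± 1.18 (SD, n = 2) in M15. KTS-minus had a mean ratio of 1.24 ± 0.113 (SD, n = 2), and the lines did not overlap. With lists cut to equal length, as described below, the means were 4.60 in M15 and 3.43 in KTS-minus. The smallest p that exact permutation of 2 libraries against 2 allows is 0.33, so the lines were not tested against each other.

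Peaks covered a large part of the blocks in KTS-minus. KTS-minus replicate 1 had a covered share, the percentage of bases under a peak, of 57.1%, and KTS-minus replicate 2 one of 22.1%, a mean of 39.6% ± 24.8 (SD, n = 2). In M15 it was 3.42% in replicate 1 and 14.9% in replicate 2, a mean of 9.18% ± 8.14 (SD, n = 2). On the rest of the same chromosomes KTS-minus replicates covered 33.2% and 14.1% and M15 replicates 0.707% and 4.70%. Both KTS-minus lists lay above both M15 lists, inside and outside the blocks. The rest of chromosomes 15 and 19 was itself covered more than the genome outside the blocks taken whole, where the shares were 16.6% and 7.65% in KTS-minus and 0.459% and 2.71% in M15. DNA copy number was not measured.

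**Figure D1:**
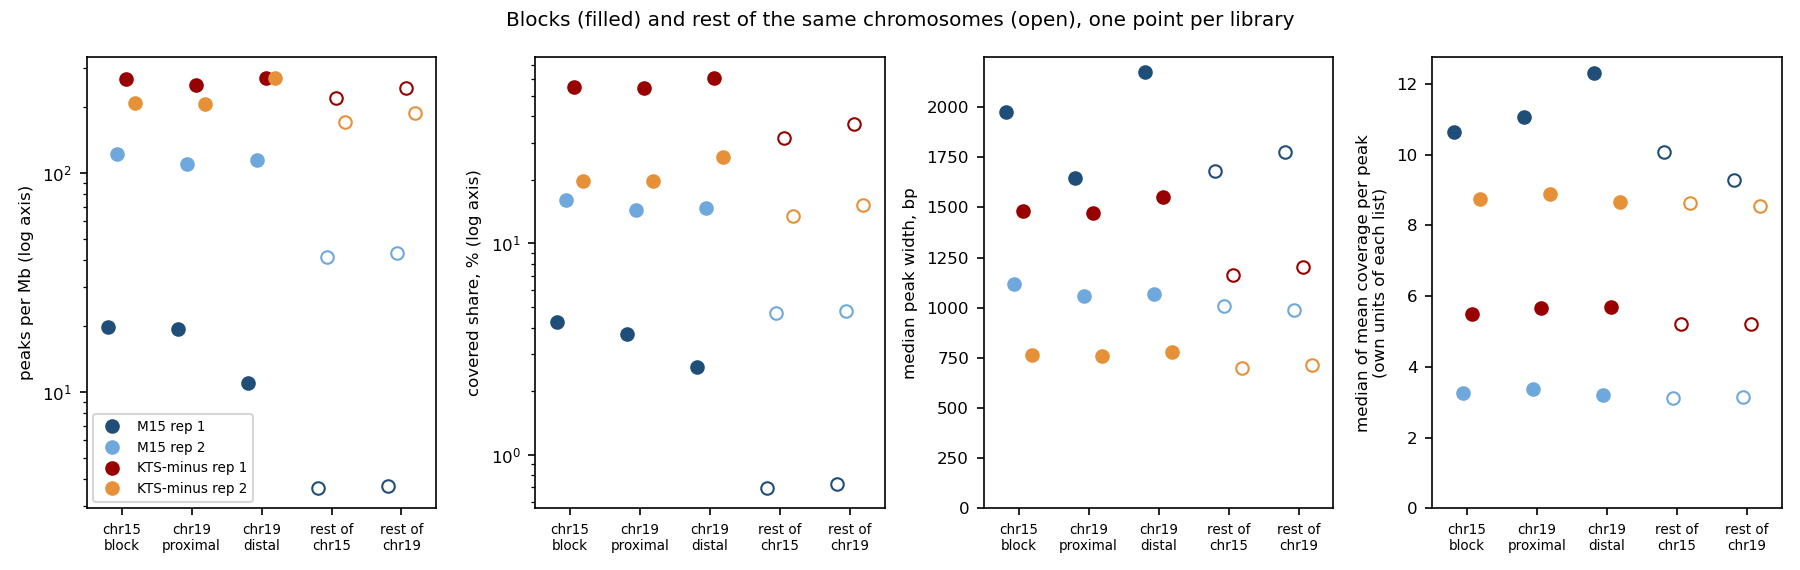
Peaks per Mb, covered share, median peak width and median of the mean coverage per peak (total signal divided by width), for each block (filled points) and for the rest of chromosomes 15 and 19 (open points), 1 point per library. M15 replicate 1 goes from 3.64 and 3.70 peaks per Mb on the rest to between 11 and 19.8 in the blocks, while KTS-minus replicate 1 stays between 219.1 and 272.7 throughout. Both KTS-minus points lie at 272.7 in the distal chromosome 19 block.

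The blocks were not alike within a library. M15 replicate 1 was densest in the chromosome 15 block, with 79 peaks (19.8 per Mb, 4.24% covered), and in the proximal chromosome 19 block, with 97 (19.4 per Mb, 3.75%). It was sparser in the distal block, with 66 (11 per Mb, 2.60%). M15 replicate 2 was nearly even, with 486, 546 and 690 peaks in the same order and 16.0%, 14.4% and 14.7% covered. Both KTS-minus libraries were densest in the distal block: replicate 1 covered 55.1%, 54.2% and 61.0%, and replicate 2 covered 19.8%, 19.7% and 25.7%. The distal block thus ranked last in M15 replicate 1 and first in both KTS-minus libraries, while M15 replicate 2 put it between the others. Each KTS-minus list held 1636 peaks there.

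Summed signal per Mb is the product of peaks per Mb, mean peak width and mean coverage inside peaks, and its excess in the blocks was made up differently in the lists. The excess over the rest of both chromosomes was 5.75-fold and 3.68-fold in M15 replicates 1 and 2, and 1.95-fold and 1.72-fold in KTS-minus replicates 1 and 2. On a log scale, peak number made up 84.8% and 77.6% of it in M15. In KTS-minus, peak number made up 22.5% and 51.6%, and peak width 58.9% and 32.2%. Mean coverage made up 9.86% to 18.6% in the 4 lists. Against the rest of both chromosomes, M15 blocks thus differed mainly in peak number, and the blocks of KTS-minus replicate 1 mainly in peak width. This depends on the reference: against the whole genome outside the blocks, peak number made up 58.9% and peak width 33.0% in KTS-minus replicate 1, and 80.5% and 13.5% in KTS-minus replicate 2.

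**Figure D2:**
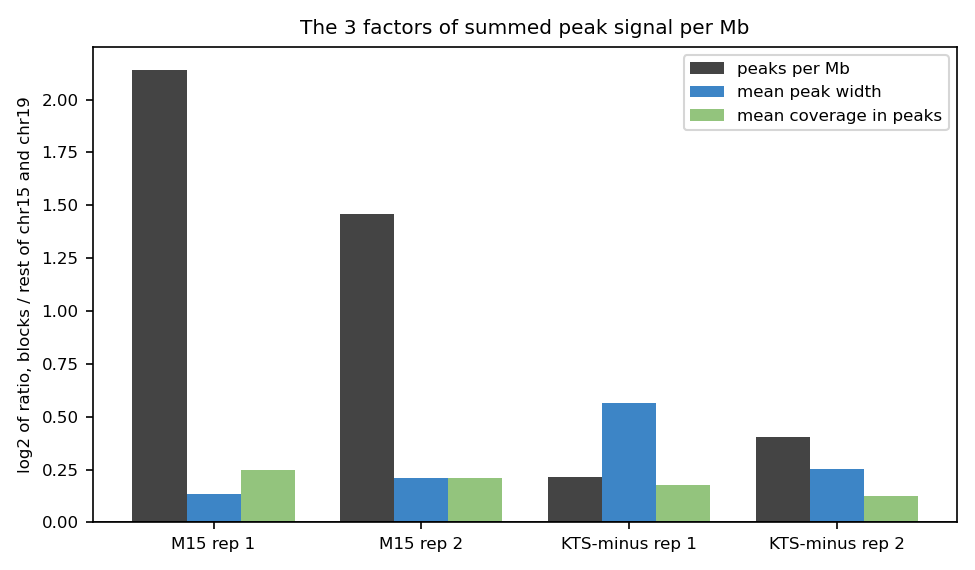
The log2 ratio of the blocks to the rest of chromosomes 15 and 19 for peaks per Mb, mean peak width and mean coverage in peaks, 1 group of bars per library; the 3 bars of a library add up to the log2 excess of summed signal per Mb. With the 3 blocks pooled, the bar for peak number is the tallest in both M15 lists and in KTS-minus replicate 2. The bar for width is the tallest in KTS-minus replicate 1.

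Wide peaks made up a larger share of peaks in the blocks than on the rest in every list. In KTS-minus replicate 1 the median width was 1509 bp in the blocks and 1179 bp on the rest, and 273 of 3968 block peaks (6.88%) were 5 kb or wider, against 1.13% on the rest. In KTS-minus replicate 2 the medians were 770 and 704 bp, and 6 peaks (0.171%) reached 5 kb, against 0.0394% on the rest. In M15 the medians were 1874 against 1692.5 bp in replicate 1 and 1075.5 against 1001 bp in replicate 2, and 8 (3.31%) and 14 (0.813%) block peaks reached 5 kb, against 1.52% and 0.166% on the rest. The proximal chromosome 19 block was the exception in M15 replicate 1, with a median of 1648 bp, below that of the rest. Mean coverage per peak moved little: its median in the blocks was 1.13 and 1.05 times that of the rest for M15, against 1.08 and 1.02 times for KTS-minus. Coverage has no common scale between libraries, so only such ratios within a list can be compared.

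The gap between neighbouring peaks shrank in every list. Its median was 24896.5 bp in the blocks of M15 replicate 1 and 50691.5 bp on the rest, and 3655 and 10232 bp in M15 replicate 2. In KTS-minus it was 1053 and 1866.5 bp in replicate 1 and 2056 and 3274 bp in replicate 2. In KTS-minus replicate 1 the median gap inside the blocks was therefore shorter than the median peak.

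The density ratio was highest among strong peaks. Peaks were ranked by max signal, the highest coverage reached in a peak, within their own list. In the strongest 10% of each list, peaks per Mb in the blocks were 9.79, 4.87, 2.15 and 1.88 times those on the rest of both chromosomes, in the order M15 replicates 1 and 2 and KTS-minus replicates 1 and 2. In the weaker 50% the ratios were 3.51, 2.37, 0.792 and 1.19. Among the weaker peaks of KTS-minus replicate 1 the blocks were thus less dense than their surroundings, while those of the other 3 lists were denser there. The weaker 50% still supplied 92 of 242, 903 of 1722, 1169 of 3968 and 1563 of 3500 block peaks, against 49, 235, 712 and 475 from the strongest 10%. Max signal is part of the summed signal that chose the blocks, so this order is a description only.

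**Figure D3:**
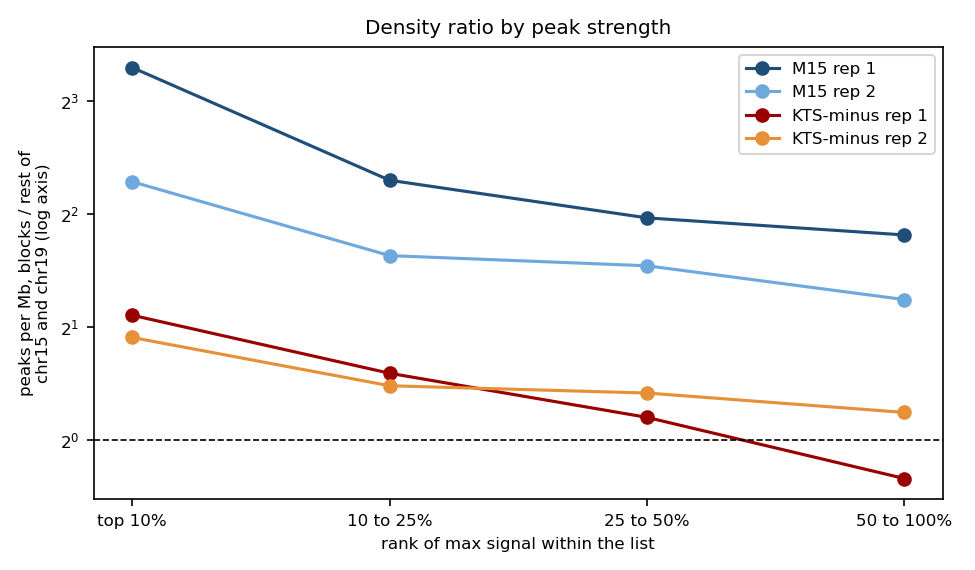
Ratio of peaks per Mb in the blocks to peaks per Mb on the rest of chromosomes 15 and 19 (log axis) for 4 classes of peaks by rank of max signal within the list, 1 line per library; the dashed line marks equal density. All 4 lines fall from the strongest 10% to the weaker 50%, and the line of KTS-minus replicate 1 ends at 0.792.

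The gap between the lines was smaller when the lists were cut to equal length. When every list was limited to as many peaks as M15 replicate 1 has, 6440, taken from the top by max signal, the blocks held 242, 246, 224 and 168 peaks in the order used above, or 3.76%, 3.82%, 3.48% and 2.61% of a list. The density ratio to the rest of both chromosomes was then 4.41 and 4.78 for M15, against 3.68 and 3.17 for KTS-minus. Its mean was 4.60 ± 0.264 (SD, n = 2) in M15. The mean of KTS-minus was 3.43 ± 0.363 (SD, n = 2). M15 still lay above KTS-minus, by 1.34-fold at equal length against 2.88-fold in whole lists. The cut changes list length and peak strength together, and these cannot be told apart here. At equal length the block peaks of KTS-minus were much wider than the rest, with medians of 4758 against 2351 bp in replicate 1 and 1917.5 against 1035 bp in replicate 2. The M15 medians were 1874 against 1692.5 bp and 1870.5 against 1630 bp.

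Relative to the whole of a library, the blocks took a larger part of M15. They are 0.582% of the span of all chromosomes but Y, and held 4.17% and 3.12% of the length under peaks in M15 replicates 1 and 2, against 1.98% and 1.66% in KTS-minus replicates 1 and 2. The share of a library's covered length was also compared bin by bin, in bins of 100 kb. Of the 149 block bins with a peak in any list, both M15 libraries lay above both KTS-minus libraries in 76 (51.0%), against 9.48% of all 25551 such bins of the genome. The opposite order was found in 25 bins (16.8%), against 59.2% of the genome's bins. By block, M15 was higher in 24 of 40 bins on chromosome 15, in 28 of 49 in the proximal and in 24 of 60 in the distal chromosome 19 block. KTS-minus was higher in 3, 6 and 16 bins. A bin without a peak of M15 replicate 1 could not count as higher in M15. That list has 6440 peaks in all, so most bins of the genome could not count. These counts also rest on the signal that chose the blocks, so nothing is read from their distance to the genome's shares.

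Inside the blocks the covered share rose and fell along the sequence, and on chromosome 19 the highest bin of each block was the same in all 4 lists. Bins were ordered by their covered share averaged over the 4 lists. In the proximal chromosome 19 block the bin from 5800001 to 5900000 was the most covered, with 20.0% and 42.9% in M15 replicates 1 and 2 and 89.0% and 41.8% in KTS-minus replicates 1 and 2. In the distal block it was the bin from 46500001 to 46600000, with 22.2% and 54.0% for M15, against 89.0% and 48.1% for KTS-minus. In the chromosome 15 block it was the bin from 78600001 to 78700000, at 18.5% and 37.2% for M15, against 68.3% and 38.1% for KTS-minus. Each of these 3 bins was above the block's 90th percentile in both M15 lists and in KTS-minus replicate 2. In KTS-minus replicate 1 the chromosome 15 bin, at 68.3%, lay under that block's 90th percentile of 71.0%. On chromosome 15 the bin was the highest in M15 replicate 2 and KTS-minus replicate 2 only. M15 replicate 1 was highest in the bin from 76000001, at 19.2%, and KTS-minus replicate 1 in the bin from 76100001, at 74.6%.

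**Figure D4:**
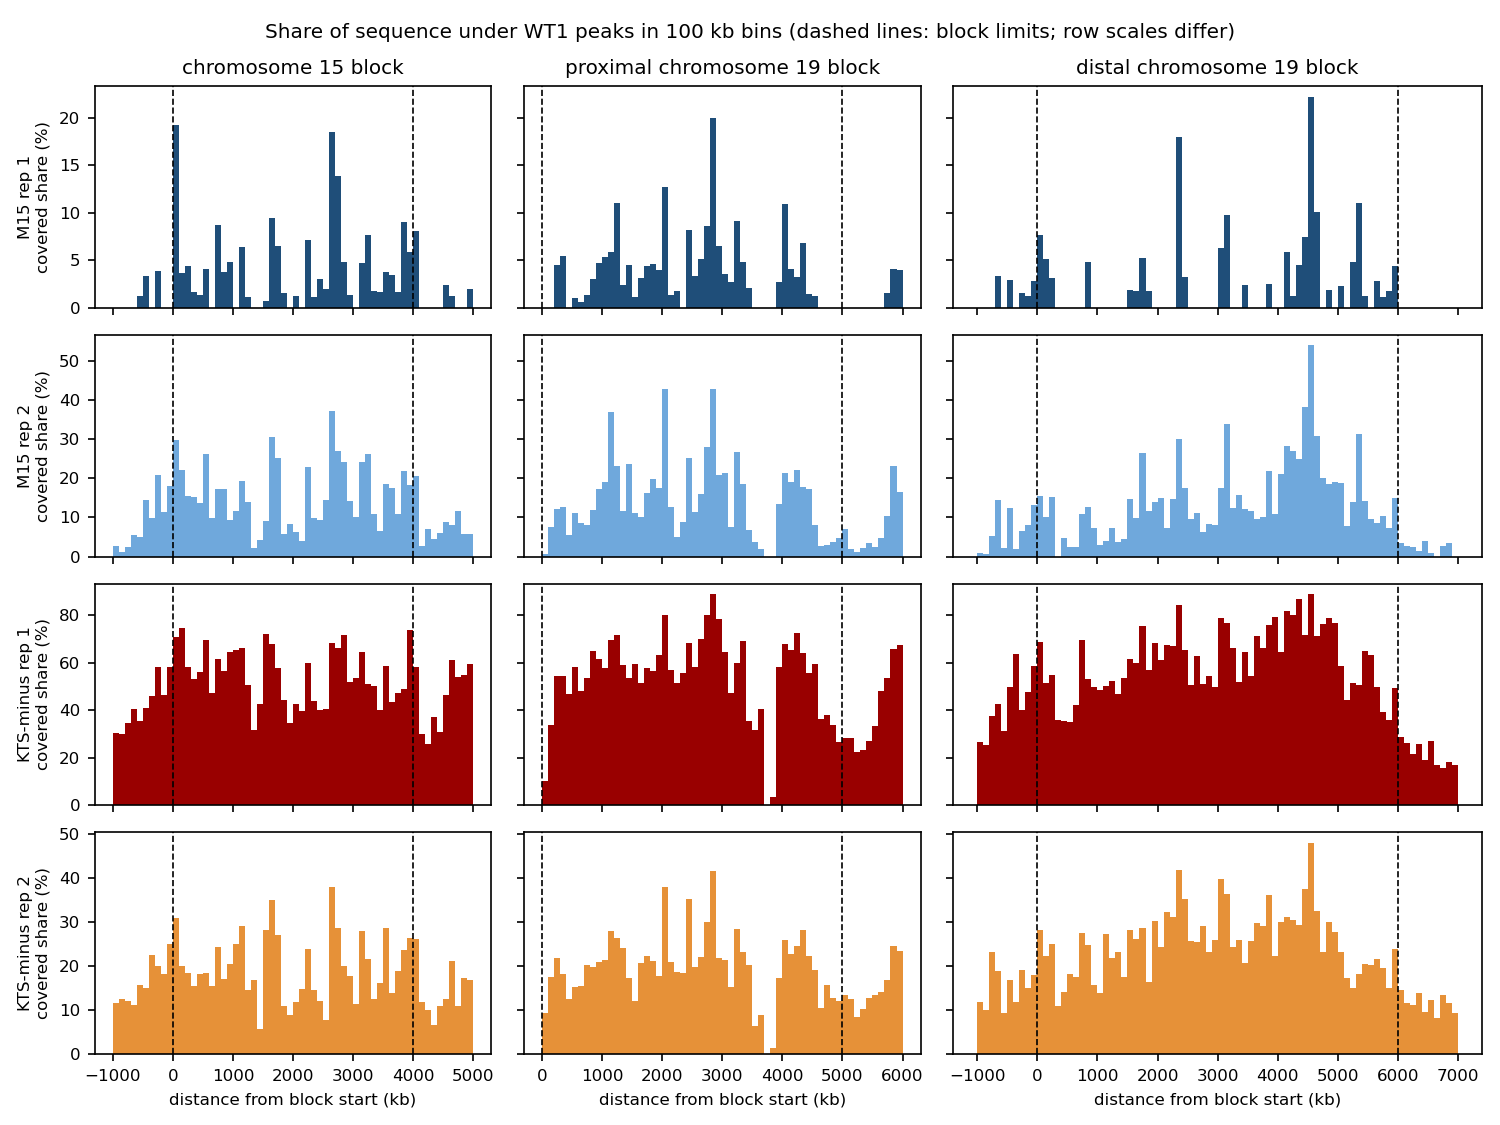
Covered share in 100 kb bins along the 3 blocks and 1 Mb on each side (none before the proximal chromosome 19 block), against the distance from the block start, 1 row per library with its own scale; dashed lines mark the limits. The crests near 2800 kb in the proximal and 4500 kb in the distal chromosome 19 block stand out in all 4 rows, as does the gap near 3700 kb in the proximal block.

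The deepest trough common to all 4 lists lay in the proximal chromosome 19 block. The bin from 6700001 to 6800000 in the proximal chromosome 19 block held no peak in any list, and the next bin, to 6900000, was covered to 3.49% and 1.42% in KTS-minus replicates 1 and 2 and held no M15 peak. Around them lay a stretch of 200511 bp, from 6688040 to 6888550, without a peak in any of the 4 lists. In the other blocks the longest such stretch was 9578 bp on chromosome 15, from 77810442 to 77820019, and 9040 bp in the distal chromosome 19 block, from 47739414 to 47748453. Whether reads can be mapped to the long stretch was not tested. The first bin of the proximal block, 3000001 to 3100000, was also low, at 0 and 0.694% for M15 and 10.4% and 9.34% for KTS-minus. On average over the lists, the least covered bin on chromosome 15 was 77300001 to 77400000, at 0 and 2.14% for M15 and 31.6% and 16.8% for KTS-minus. KTS-minus replicate 2 did not share it: its lowest bin was the next, from 77400001, at 5.74%, and its block median was 18.5%. In the distal block it was 42300001 to 42400000, at 0 for both M15 lists, and at 35.9% and 10.9% for KTS-minus.

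Over all 150 block bins, the covered share of M15 replicate 1 had a median of 1.86% and ranged from 0 to 22.2%, with 50 bins at 0. The median was 13.1% in M15 replicate 2 (range 0 to 54.0%), 58.0% in KTS-minus replicate 1 (0 to 89.0%) and 21.7% in KTS-minus replicate 2 (0 to 48.1%). Relative to its mean, the profile was most uneven in M15 replicate 1, with a coefficient of variation of 127%, followed by M15 replicate 2 with 63.8%, KTS-minus replicate 2 with 36.6% and KTS-minus replicate 1 with 26.7%. This order is the reverse of that of the covered share of the blocks. Unevenness and the sparseness of a list therefore cannot be told apart here. Of the 30 most covered bins of each library, 10 were common to all 4, of which 6 lay in the distal, 3 in the proximal and 1 in the chromosome 15 block.

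Spearman's rho of the covered share over the 150 bins was 0.78 for the M15 pair and 0.78 for the KTS-minus pair. Between the lines it was 0.75 and 0.65 when M15 replicate 2 was set against KTS-minus replicates 1 and 2, and 0.50 and 0.44 when M15 replicate 1 was. Over the 1439 bins on the rest of chromosomes 15 and 19 the rho was 0.60 for the M15 pair and 0.58 for the KTS-minus pair. Between the lines it was 0.70 and 0.48 there for M15 replicate 2, and 0.55 and 0.44 for M15 replicate 1. Neighbouring bins share peaks and local sequence and are not replicates, and the bins without coverage in M15 replicate 1 are ties. The blocks differed from each other: between M15 replicate 1 and the KTS-minus lists, rho was 0.81 and 0.85 in the proximal block and 0.37 and 0.35 in the distal block, where M15 replicate 1 had 31 of 60 bins at 0.

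Peak number did not follow covered share in KTS-minus replicate 1. Within that library the rho of peak number with covered share over the 150 bins was 0.02, against 0.97 in both M15 libraries and 0.86 in KTS-minus replicate 2. With its bins split by covered share into 3 classes of 50, the mean covered share rose from 40.8% to 57.8% and 72.8%, while the mean number of peaks per bin went from 24.7 to 29.2 and back to 25.5. Covered length per peak rose from 1651 to 1981 and 2860 bp. In KTS-minus replicate 2 both rose together, from 13.7% with 17.0 peaks to 31.0% with 29.4 peaks. The bin from 46500001 to 46600000 shows this: KTS-minus replicate 1 covered 89.0% of it with 14 peaks, and KTS-minus replicate 2 covered 48.1% with 27. The rho of the KTS-minus pair fell to 0.06 when peak numbers per bin were compared in place of covered shares, while that of the M15 pair was 0.71.

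The rule on 1 Mb bins set the limits of the blocks, and the change in summed signal across them was unequal. All 15 bins of 1 Mb inside reached 4 times the library median in at least 3 libraries, as the rule asks, and 5 did so in all 4. By library, 14 reached it in M15 replicate 1, 15 in M15 replicate 2, 15 in KTS-minus replicate 1 and 6 in KTS-minus replicate 2. At the distal end of the distal block the summed signal dropped from 6.45, 13.1, 4.55 and 3.54 times the median in the last bin inside to 0, 1.58, 1.75 and 1.95 times in the first bin outside, in the order used above. The start of the proximal block is where the sequence used begins. The limit at 8000000 was shallower: 5.68, 11.5, 5.05 and 3.55 times inside and 2.24, 6.81, 3.71 and 2.74 times outside. At 42000001 the values were 2.21, 5.49, 3.75 and 2.59 outside and 4.96, 7.85, 4.52 and 3.77 inside. On chromosome 15 they were 2.16, 8.04, 3.72 and 2.96 before the block and 12.8, 19.1, 6.08 and 3.63 in its first bin. In its last bin they were 8.25, 15.8, 5.17 and 3.72, and after it 2.62, 7.10, 4.15 and 2.53. Outside the blocks, 11 of 145 bins of 1 Mb on both chromosomes also reached the level in at least 3 libraries. The bins 38000001 to 39000000 on chromosome 15 and 53000001 to 54000000 on chromosome 19 reached it in all 4. The latter stood at 11.6, 17.3, 5.63 and 4.59 times the median. Neighbouring bins from 98000001 to 100000000 on chromosome 15 were also among the 11. So were the bins 81000001 to 82000000 on chromosome 15 and 9000001 to 10000000 on chromosome 19, each with 1 bin between it and a block.

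To count sites present in several lists, peaks of the 4 lists were merged into 1 site where they shared at least 1 bp. The blocks held 4429 merged sites, of which 206 (4.65%, 95% Wilson interval 4.07 to 5.31) had a peak in all 4 lists, against 1.17% in the genome and 1.06% on the rest of chromosomes 15 and 19. That is 13.7 such sites per Mb against 3.30 on the rest. The share was 5.66% (69 sites) in the chromosome 15 block, 5.92% (84) in the proximal and 2.96% (53) in the distal chromosome 19 block. Sites in 1 list made up 49.9% in the blocks and 70.4% on the rest. The more sequence lists cover, the more their peaks overlap and merge by placement. The blocks were also chosen on the peak signal of these lists, so the share was not tested against the rest or the genome. Neighbouring sites and peaks are not independent, so the intervals here and below show counting error only. Sites with all 4 lists had a median width of 6298 bp in the blocks and 4743.5 bp on the rest, and a median of 6 and 5 merged peaks. Without M15 replicate 1, the shortest list, 801 sites had a peak in all of the other 3 lists, and with lists of equal length 78 sites had one in all 4.

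**Figure D5:**
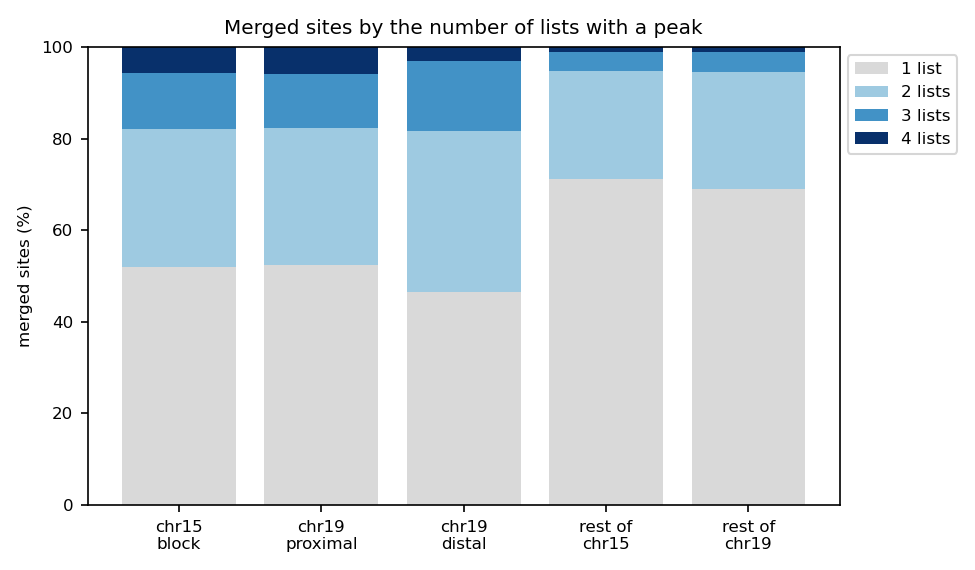
Merged sites of each block and of the rest of chromosomes 15 and 19 by the number of lists with a peak, as a percentage of the sites of that region. Sites in 4 lists make up 5.66%, 5.92% and 2.96% of the blocks and 1.06% of the rest of either chromosome.

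Sites that both M15 lists held were nearly always held by KTS-minus too. Of 207 sites with a peak in both M15 lists, 206 had one in both KTS-minus lists, 1 in KTS-minus replicate 2 only, and 0 in neither, against 1.23% with neither in the genome and 1 of 481 on the rest of both chromosomes. The share with both KTS-minus lists was 99.5% (95% Wilson interval 97.3 to 99.9) in the blocks, near the 98.5% (97.0 to 99.3) on the rest. In the genome it was 93.7% (93.1 to 94.3). Taken peak by peak, 242 of 242 block peaks of M15 replicate 1 overlapped a peak of M15 replicate 2, and 241 (99.6%, 95% Wilson interval 97.7 to 99.9) overlapped all 3 other lists. On the rest of both chromosomes 95.8% did. The share falls with stricter settings: it was 36.8% with lists of equal length and 13.6% when 50% of both peaks had to overlap. The single exception, named after its values were seen, lay on chromosome 15 from 76709076 to 76710369. It had a max signal of 24 in M15 replicate 1, at rank 76.9% of that list, and the nearest KTS-minus peaks were 42 bp away in replicate 1 and 231 bp away in replicate 2. So high a share stands beside a large covered length: 96.7% of the bases under M15 replicate 1 block peaks lay under a peak of KTS-minus replicate 1, which covered 57.1% of all block bases, and 82.4% under one of replicate 2, which covered 22.1%.

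Peaks that overlapped did not always have their summits together. A summit is taken here as the midpoint of the stretch that reaches the max signal. Among overlapping peaks, for M15 replicate 1 block peaks the nearest summit of M15 replicate 2 was a median of 72.3 bp away, and 81.8% lay within 250 bp. The nearest summit of KTS-minus replicate 2 was 103.5 bp away (71.4% within 250 bp), and that of KTS-minus replicate 1 was 315.5 bp away (44.8%). Between the KTS-minus replicates the median distance was 512.5 bp, with 28.3% within 250 bp. On the rest of both chromosomes the same shares were 77.6%, 70.6%, 47.8% and 28.2%. Block peaks of M15 replicate 1 thus nearly all overlapped the other lists, while summits of KTS-minus replicate 1 lay over 250 bp from those of M15 replicate 1 and KTS-minus replicate 2 in most overlapping peaks.

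The longer M15 list was shared less. Of the 1722 block peaks of M15 replicate 2, 89.2% overlapped KTS-minus replicate 1 and 55.9% overlapped replicate 2, against 70.6% and 47.3% on the rest. In the other direction, 5.72% and 32.6% of KTS-minus replicate 1 block peaks overlapped M15 replicates 1 and 2, and 8.37% and 29.7% of KTS-minus replicate 2 block peaks did. KTS-minus peaks without an M15 partner were therefore the majority in the blocks. The M15 lists held only 242 and 1722 block peaks, against 3968 and 3500 in the KTS-minus lists. Shorter lists leave fewer possible partners, so nothing is read from this majority. Of 1854 merged sites with both KTS-minus lists, 1057 (57.0%) had no M15 peak, against 79.0% on the rest and 73.7% in the genome. The KTS-minus lists overlapped each other at 52.3% of replicate 1 block peaks and 79.1% of replicate 2 block peaks, against 36.9% and 52.6% on the rest, and these shares again rise with the covered length.

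The top sites with all 4 lists were named by the mean rank of max signal. In the chromosome 15 block the first was the site from 79517329 to 79521788, where max signal reached 149 in M15 replicate 1, 52 in M15 replicate 2, 58 in KTS-minus replicate 1 and 122 in KTS-minus replicate 2. Next came the site from 76023063 to 76039321 (125, 59, 66 and 76 in the same order) and by that from 78748320 to 78766221 (120, 43, 49 and 93). The first site is compact, at 4460 bp, while the other two span 16259 and 17902 bp and join at least 2 peaks of every list. The widest single peaks of the block were of 6696 bp in M15 replicate 1, 9822 bp in M15 replicate 2, 20495 bp in KTS-minus replicate 1 and 5678 bp in KTS-minus replicate 2. The first lay in the second of these sites, and the others outside all 3.

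In the proximal chromosome 19 block the first site lay from 7047796 to 7057188, where the 4 lists reached 150, 47, 61 and 143. The second lay from 6359607 to 6369600 (146, 50, 66 and 93). The third, from 5820662 to 5854154, was the widest site of the block with all 4 lists, at 33493 bp, and reached 124, 46, 59 and 153. It joined 1 and 9 peaks of the M15 lists with 3 and 7 of the KTS-minus lists. The widest block peak of KTS-minus replicate 1 (19612 bp), of KTS-minus replicate 2 (7925 bp) and of M15 replicate 2 (8937 bp) all lay inside it. That of M15 replicate 1 (6685 bp, from 5810008 to 5816692) lay just before it.

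In the distal block the first site lay from 43747955 to 43757928, where the lists reached 137, 43, 71 and 99. The next sites lay from 42051660 to 42059870 (125, 39, 63 and 107) and from 44357626 to 44374819 (127, 34, 52 and 148). At all 9 named sites the peaks ranked in the strongest 2.06% of M15 replicate 1 and in the strongest 0.612%, 0.0920% and 0.190% of M15 replicate 2 and KTS-minus replicates 1 and 2. The widest KTS-minus replicate 1 peak of any block, 41462 bp from 46561608 to 46603069, was in the distal block and had a max signal of 40. The widest M15 peaks of that block, 7074 bp in replicate 1 and 6281 bp in replicate 2, lay next to it, between 46551483 and 46559617, and did not overlap it.

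Block sites with all 4 lists were more often strong in every list than those elsewhere. Of the 206, 42 (20.4%) ranked in the strongest 10% of all 4 lists, against 8.65% of 474 on the rest of both chromosomes. In the genome 10.1% of 5331 such sites did. By block the 42 were 10 of 69 on chromosome 15, 17 of 84 in the proximal and 15 of 53 in the distal chromosome 19 block. The distal block thus had the fewest sites with all 4 lists and the largest share of strong ones. Its median max signals at such sites, 54, 22, 31 and 45 in the 4 lists, were above those of the chromosome 15 block (39, 16, 24 and 34) and the proximal block (40, 17, 27 and 40) in each library. A site takes its highest peak in each list, so a site that joins more peaks has more chances of a high rank. Sites with all 4 lists had a median width of 8211 bp and 8 merged peaks in the distal block. The medians were 5967 and 5966.5 bp with 6 peaks in the other blocks, and 4743.5 bp with 5 peaks on the rest. Max signal is also part of what chose the blocks, so these shares were not tested.

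Sites with a peak in both KTS-minus lists and none in M15 numbered 241, 306 and 510 in the 3 blocks in order. They made up 52.7%, 54.9% and 60.7% of the block sites with both KTS-minus lists. The share was larger elsewhere, at 73.7% in the genome and 79.0% on the rest of both chromosomes. The top-ranked such sites of each block were weaker than the sites with all 4 lists named above. On chromosome 15 they lay from 78692094 to 78697394 (max signal 22 and 36 in KTS-minus replicates 1 and 2) and from 78240955 to 78245352 (21 and 34). In the proximal block they lay from 5383547 to 5390762 (25 and 51) and from 3192039 to 3196891 (35 and 38). In the distal block they lay from 45632666 to 45637666 (29 and 45) and from 46709277 to 46712383 (22 and 38). The sites with all 4 lists and those with KTS-minus alone were each chosen by max signal rank, from unequal numbers of candidates.

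Set beside the dense segment of chromosome 10 from 118000001 to 128000000, the blocks of chromosomes 15 and 19 were covered less by every list. The chromosome 10 segment was covered to 8.15% and 26.8% by the M15 lists, and to 83.4% and 54.4% by those of KTS-minus. In KTS-minus replicate 1 it held 113 peaks per Mb with a median width of 3151 bp, against 264.5 per Mb and 1509 bp in the blocks. In KTS-minus replicate 2 it held 308.4 per Mb with 1077.5 bp, against 233.3 per Mb and 770 bp. Both segments were chosen by the same signal, so the difference was not tested.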

How the data were processed

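WT1 CUT&RUN was analysed from 4 peak lists, 1 per library. The submitters' processing notes name the build mm9 and the tools Bowtie2 2.2.6, SEACR 1.3, SAMtools 1.3, Picard 2.5.0, bedtools 2.23.0 and FastQC 0.11.8. The deposited signal values are whole numbers, the authors' own coverage summed over a peak (total signal) and at its highest point (max signal). Yeast DNA was added to each sample, per the labels' protocols. None of the sources used here gives the scaling between libraries, the control or the threshold, and read depth is unknown, so signal was compared within a list only.

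Coordinates are mm9, counted from 1. Lengths outside the blocks run from 3000001 to the last peak end. The gene and promoter tables at hand belong to GRCm38, so no gene, motif or sequence was assigned to a peak and the planned sequence features were not computed. Wilson intervals treat neighbouring peaks as independent and leave out all but counting error.

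The blocks, lists and rules were chosen with earlier results of these data known. Named sites were, per block, the 3 best by mean rank (max signal rank divided by list length) with all 4 lists, up to 2 with both M15 and no KTS-minus list (there were none), up to 2 with both KTS-minus and no M15 list, the widest peaks, the extreme 100 kb bins, the longest stretch without a peak and the 1 Mb bins at the limits. Alternatives were shorter, equal-length and summit-only lists, other overlaps, limits, references and bins, and leaving out each replicate. Merging, overlap by 1 bp, assignment to a block and covered bases were checked on simulated lists. Their sites lay too far apart to join in chains, and the other steps were not simulated. Python 3.11.15, numpy 2.4.6, pandas 2.3.3, scipy 1.17.1 and matplotlib 3.10.9 were used.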

Additional observations from a re-analysis of the deposited data

How the results depend on the processing

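Of 41 recomputed values, 27 stayed within their limits and 14 moved, and none reversed. Not counted are 16 line means with 1 of 2 replicates left out, which by construction cannot move by 1 SD and say nothing of stability. The 27 do include the share of overlapped M15 replicate 1 peaks with each other list left out, which was fixed in advance. The limits were 1 SD between replicates for line means, a factor of 1.5 for counts, the 95% interval for the share of M15 replicate 1 peaks, and 1 SD over the 6 library pairs for rho. Some limits were wide, so the count of values that stayed is no measure of stability. For covered share they were 8.14 around 9.18% in M15 and 24.8 around 39.6% in KTS-minus. Against the rest of the genome, the density ratio of the blocks was 5.82 in M15 and 2.35 in KTS-minus. Kept to the 50% of each list strongest by total signal, the KTS-minus ratio was 1.49, the M15 width ratio 1.06 and the number of sites with all 4 lists 134. The KTS-minus ratio was 3.43 with lists of equal length, an alternative added after seeing the data. Sites with all 4 lists numbered 78 with lists of equal length, 33 with a 50% reciprocal overlap and 16 when summit stretches alone were overlapped. The share of M15 replicate 1 block peaks overlapped in all 3 other lists was 36.8% with equal lengths, 13.6% with a 50% reciprocal overlap and 0.413% with summit stretches, which are much shorter than peaks. The rho of the KTS-minus pair was 0.056 on peak numbers.

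Leaving out 1 replicate gave 210 to 801 sites with all remaining lists, density ratios of 2.75 to 4.41 in M15 and 1.16 to 1.32 in KTS-minus, and covered shares of 3.42% to 14.9% and 22.1% to 57.1%. Width ratios were 1.07 to 1.11 and 1.09 to 1.28, and coverage ratios 1.05 to 1.13 and 1.02 to 1.08. The M15 replicate 1 share was 99.6% each time, which was fixed in advance because the single exception overlaps neither KTS-minus list. No paired analysis was possible because the results come from no test and replicate numbers carry no stated link between the lines.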
